A study of Mus musculus with 28 samples.

Results

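Aminoacyl-tRNA synthetases were followed by the transcripts that encode them in splenic dendritic cells of the mouse. Members were the genes whose probe sets carried exactly 1 symbol in the platform annotation, that symbol ending in "ars" with or without a 1 or 2, together with Eprs, Farsa and Farsb. They came to 34 genes on 35 probe sets, 18 cytosolic and 16 mitochondrial, the latter recognised by a symbol ending in 2. A gene was tested where its signal lay above 5 on at least 3 arrays, on the log2 scale of the deposited values, and 29 members (18 cytosolic, 11 mitochondrial) passed, of 10452 genes tested and 19938 genes measured in all. Aars2, Ears2, Lars2, Nars2 and Pars2, all mitochondrial, did not pass; their highest values on any array were 4.88, 4.94, 5.10, 5.14 and 4.36. Aars was not analysed here.

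The study comprised 28 one-colour Affymetrix arrays, 1 per sample, of RNA from primary dendritic cells of 3-month-old mice, and asked how oxidative stress affects the expression profile of these cells. Cells of C57BL6/J wild-type mice had received vehicle (7 arrays), angiotensin II alone (Ang II, 4 arrays), 2-HOBA on top of Ang II (4 arrays), or hydralazine plus hydrochlorothiazide on top of Ang II (Hyd/HCTZ, 6 arrays). Cells of NOX2 (GP91 Phox) knockout mice, which lack the membrane-bound, superoxide-producing part of the phagocyte oxidase, formed a vehicle group (n = 3) and an Ang II group (n = 4). Ang II constricts vessels and drives hypertension; 2-HOBA (2-hydroxybenzylamine) traps reactive products of lipid oxidation. Hydralazine relaxes arteries, and hydrochlorothiazide promotes salt excretion. The 3 wild-type groups that were not vehicle all received Ang II. The labels named biological replicates; the cell sort, the doses and the duration, and whether mice or isolated cells were treated, were not given or not settled in the sources used here. The titles of the knockout Ang II samples write Ang I and their descriptions Ang II, which was followed. No promoter or Cre driver was given for the knockout.

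Each synthetase joins 1 amino acid to the transfer RNAs that carry it, and so supplies the charged tRNAs from which ribosomes build protein. Most amino acids have separate cytosolic and mitochondrial enzymes, both encoded in the nucleus; the symbols Kars and Gars cover both forms, so "cytosolic" follows the symbol. A group of cytosolic enzymes is held in a large multi-synthetase complex by the scaffold proteins AIMP1, AIMP2 and EEF1E1. Several synthetase genes are known targets of ATF4, the transcription factor of the amino acid response, and dendritic cells raise protein synthesis when they are activated.

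The arrays carried marks that bear on every comparison below. Cybb, which encodes NOX2, lay at 6.41 to 7.18 on the 7 knockout arrays and, on 20 wild-type arrays, at 8.35 to 9.75. Replicate 2 of wild-type vehicle, by its label, read 6.34 and went against that label. The same array had the lowest interquartile range of the series, 1.92, and a mean correlation of 0.852 with the others. Whether these bear on its Cybb value was not tested. Arrays were split into 3 sets along the leading axis of variation of 998 probe sets without a symbol. These were assumed to be controls because of their low ID numbers, and no scan date was used to check the split. Cuts were made at the widest gaps, leaving out any that would set 1 array apart. Wild-type vehicle replicate 2 lay at -25.95, with the next array at -14.39, and was kept in set 1. That gap was wider than the cut between sets 1 and 2, from -7.48 to -2.47. Set 3 held the 6 Hyd/HCTZ arrays and no others, so that array set and group cannot be told apart there. The Hyd/HCTZ arrays had a median over tested genes of 6.14 to 6.44, against 5.47 to 6.10 on the other 22, and an interquartile range over all probe sets of 3.09 to 3.44, against 1.92 to 3.03. The mean of the 19 dendritic cell markers was 9.06 to 9.21 on the Hyd/HCTZ arrays and 7.33 to 8.31 on all others, and no dendritic marker was below the threshold on all arrays. The mean of 11 B cell markers was 5.80 to 6.87 with Hyd/HCTZ and 6.61 to 9.12 on the others, so B cell transcripts were measured in every group.

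The question of the Hyd/HCTZ arm was whether these blood pressure drugs, added to Ang II, were accompanied by other transcript levels. Of 7 tested cytosolic synthetases of the multi-synthetase complex, 5 were higher with Hyd/HCTZ than with Ang II alone: Eprs (glutamyl-prolyl), Iars (isoleucyl), Qars (glutaminyl), Kars (lysyl) and Lars (leucyl) rose by 0.90 to 1.25 on the log2 scale, 1.86- to 2.37-fold. Outside the complex, Farsb, Wars, Gars and Tars rose by 0.55 to 0.80, while Vars, the cytosolic valyl enzyme, fell by 0.39. Of the mitochondrial enzymes Rars2 and Iars2 rose, by 0.55 and 0.54, and Tars2 fell by 0.37. Yars2 was called higher too, but lay below 5 on all arrays outside Hyd/HCTZ, which bounds its rise only at 0.21 or more. In total 12 members, Yars2 included, were called higher and 2 lower (limma, adjusted p below 0.05), beside 52.7% of all tested genes called (40.8% higher, 11.9% lower), so the members' share was near that of all genes. These are mixed populations in bulk, in which fewer cells of a type and less RNA per cell cannot be told apart.

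Because the median tested gene was itself higher by 0.32 with Hyd/HCTZ, each member was also tested against that median. Measured in this way, 5 members were called higher (Eprs, Iars, Qars, Kars and, with a least difference of -0.11, Yars2) and 6 lower (Vars2, Vars, Tars2, Mars2, Sars2 and Farsa), beside 48.6% of all tested genes (23.7% higher, 25.0% lower). The 7 complex members had a median difference of 1.03, or 0.71 relative to all genes, with 4 called higher and 0 lower. The 11 other cytosolic members had a median of 0.37, or 0.05 relative, with 0 called higher and 2 lower. The 11 tested mitochondrial members had a median of -0.01, or -0.33 relative, with 4 called lower and 1, Yars2, called higher, which entered the test only through the Hyd/HCTZ arrays. These class medians are descriptions, and whether the classes differ was not tested. Enzymes of structural class I and class II, the pair of unrelated folds among synthetases, had relative medians of 0.11 (16 tested) and -0.02 (12 tested). Eprs, which belongs to both classes, was counted in neither.

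**Figure D1:**
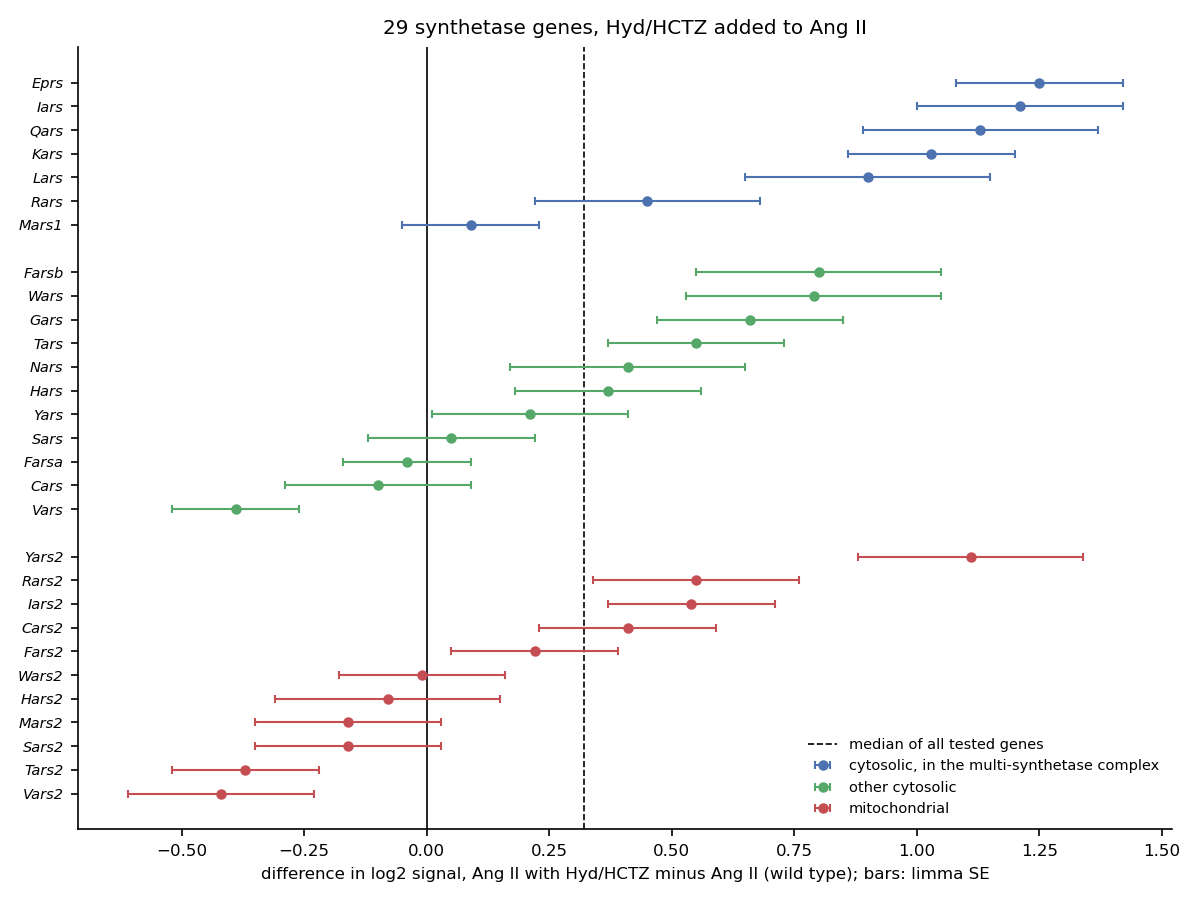
Difference in log2 signal between Ang II with Hyd/HCTZ (n = 6) and Ang II alone (n = 4) for the 29 tested synthetase genes, with limma's SE as bars; the dashed line is the median of all tested genes, 0.32. Eprs, Iars, Qars, Kars and Lars of the complex lie at 0.90 to 1.25, whereas Mars1 of the same complex lies at 0.09 and 6 of the 11 mitochondrial genes lie below 0.

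Eprs (probe set 10352514) encodes the fused enzyme that charges both glutamate and proline tRNAs. Its log2 level with Hyd/HCTZ had a lowest, median and highest value of 7.69, 8.10 and 8.18, and its 4 Ang II arrays read 6.72, 6.56, 6.94 and 6.92. With 2-HOBA it read 6.84, 6.55, 6.94 and 7.0, and on wild-type vehicle arrays 6.19, 7.0 and 7.39 (lowest, median, highest). Every Hyd/HCTZ array was above every other array of the series, and Eprs rose by 1.25 (SE 0.17, adjusted p = 7.32e-07), or 0.93 relative to all genes (adjusted p = 5.79e-05). Iars (probe set 10345025) had 7.04, 7.23 and 7.36 with Hyd/HCTZ and 5.67, 5.77, 6.22 and 6.38 with Ang II. No array outside Hyd/HCTZ exceeded 6.52, and Iars rose by 1.21 (SE 0.21, adjusted p = 2.15e-05). The other Iars probe set, 10405094, read 6.46 ± 0.23 (SD, n = 6) with Hyd/HCTZ and 6.19 ± 0.26 (SD, n = 4) with Ang II. That smaller gap lay below the median difference of all tested genes, 0.32, and the groups overlapped (6.08 to 6.74 against 5.88 to 6.52). The mean of both probe sets was higher by 0.74.

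Qars (probe set 10589004) encodes the cytosolic glutaminyl enzyme. It had 6.49, 6.87 and 7.14 with Hyd/HCTZ against 5.78, 5.63, 5.82 and 5.57 with Ang II, and rose by 1.13 (SE 0.24, adjusted p = 3.11e-04). Its Hyd/HCTZ arrays were above all Ang II, 2-HOBA and knockout arrays and overlapped with vehicle arrays, which reached 6.62. Kars (probe set 10581940), the lysyl enzyme, had 6.53, 6.97 and 7.19 against 5.84, 5.40, 6.21 and 6.12 with Ang II. No other array of the series exceeded 6.21, and Kars rose by 1.03 (SE 0.17, adjusted p = 1.03e-05). Lars (probe set 10458607), the leucyl enzyme, had 7.38, 7.56 and 7.86 against 6.40, 6.76, 6.92 and 6.71, and rose by 0.90 (SE 0.25, adjusted p = 0.00338). Relative to all genes its difference of 0.58 missed the threshold (adjusted p = 0.0521). The other complex members tested here, Rars (arginyl) and Mars1 (methionyl), differed by 0.45 and 0.09 (adjusted p = 0.0972 and 0.603). Rars stood at 7.51 ± 0.16 (SD, n = 6) against 7.06 ± 0.24 (n = 4) and Mars1 at 6.19 ± 0.12 against 6.10 ± 0.18, with overlap for both.

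**Figure D2:**
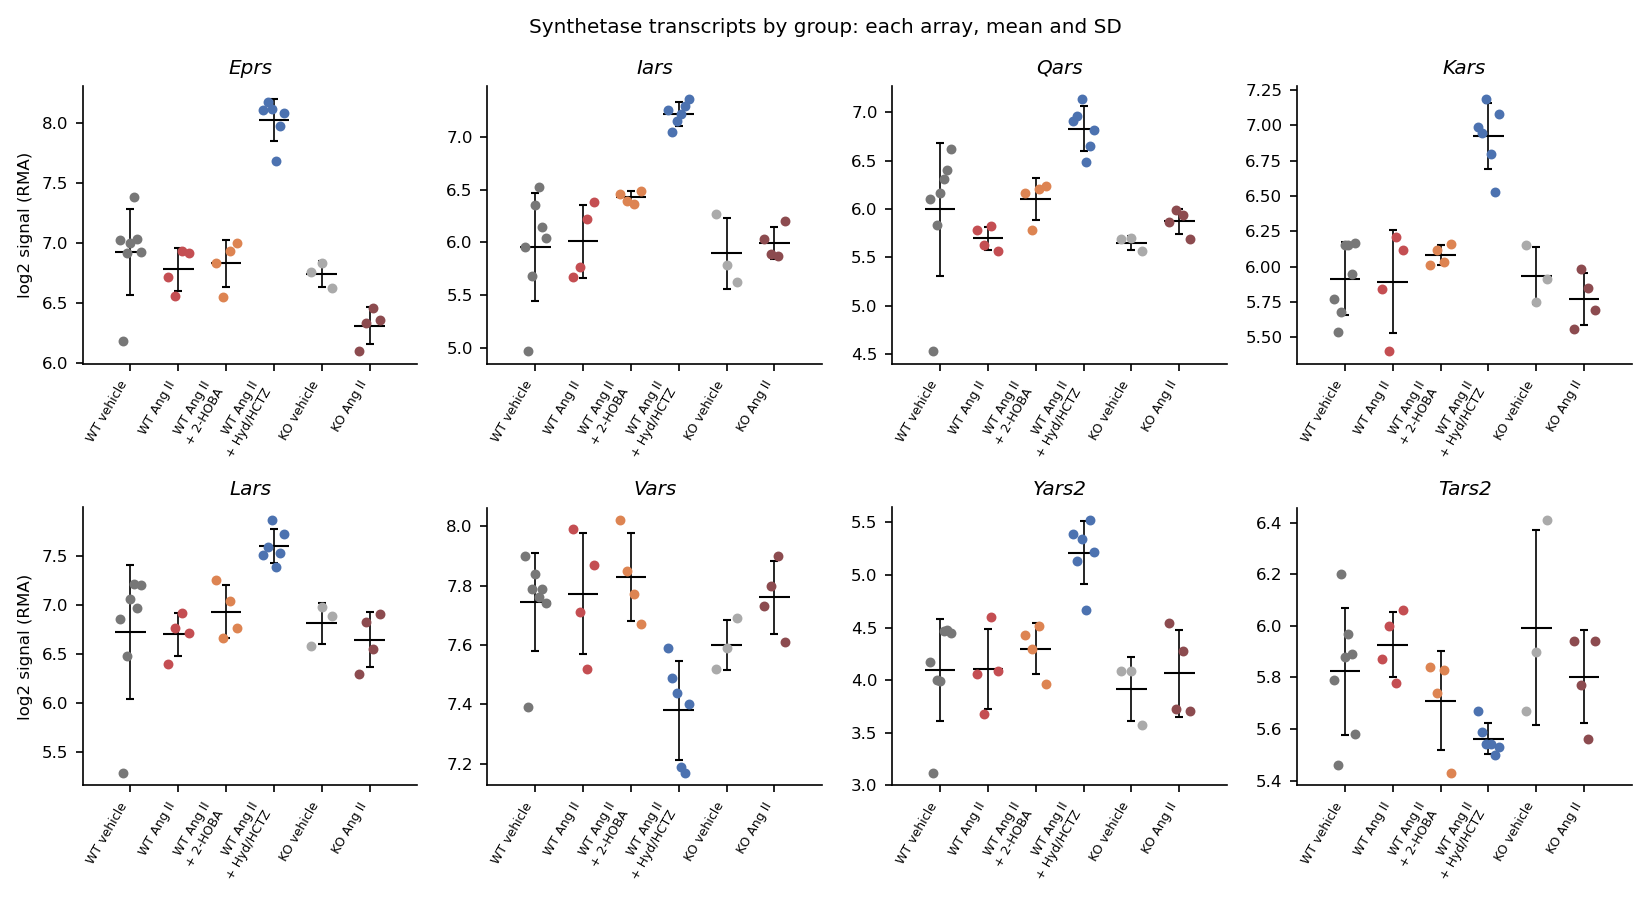
Log2 RMA signal of 8 synthetase genes on every array by group, with the group mean (line) and SD (bars); axes differ between genes and do not start at 0. For Eprs, Iars, Kars, Lars and Yars2 the 6 Hyd/HCTZ arrays lie above all others, whereas for Vars and Tars2 they lie in the lower part of the range; the lowest vehicle point for Eprs, Qars, Lars, Vars and Yars2 is replicate 2.

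The scaffold genes of the complex were also higher. Aimp1 read 5.59, 5.84, 6.16 and 6.23 with Ang II and 7.45 to 7.84 with Hyd/HCTZ, a rise of 1.65 (SE 0.22, adjusted p = 7.01e-07). The other scaffold genes, named for that role, were also called: Aimp2 rose by 0.97 (adjusted p = 1.82e-04) and Eef1e1 by 0.93 (adjusted p = 0.00198), and all 3 stayed called relative to all genes, at 1.34, 0.66 and 0.61. In the list of 16 scaffold and tRNA quality genes, 14 were tested and 6 rose, with 0 falling, a share near the 40.8% of all tested genes called higher; relative to all genes, 6 were higher and 1, Yrdc of tRNA threonylcarbamoylation, was lower by 0.39. Besides the scaffold, Osgep of the same modification pathway rose by 1.59, and Aarsd1 and Prorsd1, which resemble the editing domains of the alanyl and prolyl enzymes, rose by 1.26 and 1.29. Of 25 genes of tRNA maturation and export, 21 were tested and 13 rose, with 0 falling; relative to all genes 4 were higher and 1 lower, a smaller share higher than the 23.7% of all genes. Hsd17b10, a subunit of mitochondrial RNase P, rose by 1.78.

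Among cytosolic enzymes outside the complex, only 1 of the subunits of the phenylalanyl enzyme was called on the deposited scale. Farsb, the beta subunit, read 5.73, 6.14, 7.20 and 6.85 with Ang II and 7.08 to 7.51 with Hyd/HCTZ, and rose by 0.80 (SE 0.25, adjusted p = 0.00937). Farsa, the alpha subunit, read 6.02, 6.50, 6.45 and 6.14 with Ang II and 6.10 to 6.38 with Hyd/HCTZ, a difference of -0.04 (SE 0.13, adjusted p = 0.823). The groups overlapped for both subunits, and the gap between the subunits was not tested. Wars, the tryptophanyl enzyme and an interferon-induced gene, rose by 0.79 (SE 0.26, adjusted p = 0.0115), from 4.67, 5.24, 5.26 and 5.72 to 5.58 to 6.34. Gars (glycyl) rose by 0.66, from 6.67 ± 0.15 (SD, n = 4) to 7.33 ± 0.22 (n = 6), and Tars (threonyl) by 0.55, from 5.35 ± 0.26 to 5.90 ± 0.14 (adjusted p = 0.00563 and 0.0136). The rises of Farsb, Wars, Gars and Tars did not stay called relative to all genes (adjusted p = 0.113 to 0.300), and without Ang II replicate 1 those of Farsb, Wars and Tars were not called (adjusted p = 0.0815, 0.0728 and 0.0723). Nars (asparaginyl), Hars (histidyl), Yars (tyrosyl), Sars (seryl) and Cars (cysteinyl) had differences of 0.41, 0.37, 0.21, 0.05 and -0.10 and were not called; their mean levels with Hyd/HCTZ were 8.91, 7.03, 6.15, 6.94 and 5.37.

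Vars (probe set 10444605) was the only cytosolic member called lower on the deposited scale. It read 7.99, 7.71, 7.52 and 7.87 with Ang II and 7.17, 7.42 and 7.59 (lowest, median, highest) with Hyd/HCTZ. The groups overlapped only at the Ang II array with 7.52, and Vars fell by 0.39 (SE 0.13, adjusted p = 0.0154), or by 0.71 relative to all genes (adjusted p = 9.60e-05). The fall was not called without Ang II replicate 1 (-0.32, adjusted p = 0.0728) or with all arrays centred on a common median (-0.28, adjusted p = 0.0904).

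The promoter windows of the members were searched for a motif bound by ATF4 and its C/EBP partners. RefSeq windows (GRCm38.p6) from 250 bases before to 50 bases after the gene start were matched for 25 of the 34 members; Cars, Hars, Hars2, Lars, Nars, Pars2, Rars, Vars and Wars had no entry. TGATGNAA on either strand stood in 4 of the 25 (16%) and in 3.97% of all 32851 promoters. TGATGCAA, which TGATGNAA includes, stood in 3 of the 25 (12%) and in 0.89% of all. Members were counted by gene and all promoters by window, so the shares are not in like units. The 4 windows with a match and that of Eprs, the member with the largest difference, are shown 5′ to 3′ on the gene's strand, with each match to TGATGNAA in capitals. The window of Iars is chr13:49681880-49682179 (+), of Tars chr15:11399609-11399908 (-), of Gars chr6:55037751-55038050 (+), of Yars chr4:129189653-129189952 (+) and of Eprs chr1:185362794-185363093 (+).
Iars: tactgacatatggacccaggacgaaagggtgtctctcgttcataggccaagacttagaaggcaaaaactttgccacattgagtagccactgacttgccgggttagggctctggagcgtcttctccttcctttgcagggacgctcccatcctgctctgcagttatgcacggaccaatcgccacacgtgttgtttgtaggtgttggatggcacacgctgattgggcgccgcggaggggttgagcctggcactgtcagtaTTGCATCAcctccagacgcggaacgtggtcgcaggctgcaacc
Tars: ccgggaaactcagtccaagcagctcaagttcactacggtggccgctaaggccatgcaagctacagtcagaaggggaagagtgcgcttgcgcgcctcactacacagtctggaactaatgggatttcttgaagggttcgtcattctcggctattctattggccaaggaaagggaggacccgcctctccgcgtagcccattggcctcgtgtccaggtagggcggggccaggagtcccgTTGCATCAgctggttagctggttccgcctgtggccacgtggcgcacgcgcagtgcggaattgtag
Gars: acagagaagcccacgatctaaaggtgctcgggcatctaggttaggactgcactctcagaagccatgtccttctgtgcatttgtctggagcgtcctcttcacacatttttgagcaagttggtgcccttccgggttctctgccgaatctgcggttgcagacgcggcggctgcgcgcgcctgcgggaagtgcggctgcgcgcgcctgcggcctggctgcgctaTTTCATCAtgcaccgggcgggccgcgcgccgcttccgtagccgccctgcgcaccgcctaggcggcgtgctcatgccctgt
Yars: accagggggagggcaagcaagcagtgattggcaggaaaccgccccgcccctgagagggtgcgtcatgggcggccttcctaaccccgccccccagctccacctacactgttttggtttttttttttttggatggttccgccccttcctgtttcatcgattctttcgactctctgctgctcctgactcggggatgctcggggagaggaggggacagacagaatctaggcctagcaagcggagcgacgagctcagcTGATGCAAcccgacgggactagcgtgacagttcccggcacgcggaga
Eprs: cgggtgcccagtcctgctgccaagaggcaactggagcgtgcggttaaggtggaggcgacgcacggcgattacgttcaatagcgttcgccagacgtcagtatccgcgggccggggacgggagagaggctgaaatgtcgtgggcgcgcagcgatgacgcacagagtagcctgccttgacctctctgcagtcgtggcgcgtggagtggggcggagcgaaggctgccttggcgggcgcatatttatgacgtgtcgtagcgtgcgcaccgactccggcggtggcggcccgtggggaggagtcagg
Counting from 1 at the first base of the gene and backwards from -1, the match lay at 8 to 15 in Iars, -15 to -8 in Tars, -30 to -23 in Gars and 4 to 11 in Yars, on the gene's strand in Yars and on the opposite strand in the others. A match is a description and not a binding site. Of these 4 genes Iars, Gars and Tars rose with Hyd/HCTZ, beside 40.8% of all tested genes, and Yars differed by 0.21 (adjusted p = 0.383). Relative to all genes Gars and Tars were not called (limma, adjusted p = 0.146 and 0.300). The Eprs window held no match, and whether the motif goes with a rise was not tested. No match was found for the other 21 members with a window.

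Genes of the amino acid response itself were read beside the synthetases. Of 34 listed, 24 were tested: 15 rose and 0 fell, beside 40.8% and 11.9% of all tested genes. Relative to all genes 11 were higher and 2, Atf5 and Phgdh, lower by 0.61 and 0.89, beside 23.7% and 25.0%. Atf4 read 7.41, 7.70, 7.41 and 7.70 with Ang II and 7.88 to 8.43 with Hyd/HCTZ, a rise of 0.70 (SE 0.18, adjusted p = 0.00172), which relative to all genes was 0.38 (adjusted p = 0.0739). Mthfd2 and Shmt2, enzymes of mitochondrial one-carbon metabolism, rose by 2.09 and 1.04, Chac1, a glutathione-degrading enzyme, by 1.64, and Cebpg, a partner of ATF4, by 1.14. Asns, Trib3 and Slc7a11, other known targets, did not pass the signal threshold. Asns reached at most 4.94.

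Mitochondrial enzymes moved in both directions. Yars2 (probe set 10433904), the tyrosyl enzyme, read 4.06, 3.68, 4.60 and 4.09 with Ang II and 4.67, 5.28 and 5.52 (lowest, median, highest) with Hyd/HCTZ, a fitted difference of 1.11 (SE 0.23, adjusted p = 2.66e-04). All 22 other arrays lay below 5, so Yars2 entered the test only through the Hyd/HCTZ arrays; with 5 in place of the Ang II mean, its difference was at least 0.21 (1.16-fold), which is below the median difference of all genes. Iars2 (probe set 10360884), the isoleucyl enzyme, read 4.86, 4.83, 5.05 and 5.31 with Ang II and 5.42 to 5.70 with Hyd/HCTZ, and rose by 0.54 (adjusted p = 0.00831) without overlap. Its vehicle arrays spanned 4.73 to 5.85, around the Hyd/HCTZ range. Rars2 (probe set 10503926), the arginyl enzyme, read 5.00, 5.24, 5.82 and 5.80 against 5.73 to 6.21 with overlap, and rose by 0.55 (adjusted p = 0.0296). That rise was not called without Ang II replicate 1 or 2 or without Hyd/HCTZ replicate 3 or 4 (adjusted p = 0.0519 to 0.153). Relative to all genes neither Iars2 (0.23, adjusted p = 0.273) nor Rars2 (0.23, adjusted p = 0.376) was called, nor was either after quantile normalization (adjusted p = 0.0545 and 0.244).

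Tars2 (probe set 10500218), the threonyl enzyme, read 5.87, 6.00, 5.78 and 6.06 with Ang II and 5.50, 5.54 and 5.67 (lowest, median, highest) with Hyd/HCTZ. The groups did not overlap, and Tars2 fell by 0.37 (SE 0.15, adjusted p = 0.0438), a call that did not hold when any of 8 of the 10 arrays was left out (adjusted p up to 0.111) but was stronger relative to all genes (-0.68, adjusted p = 5.66e-04). Vars2, the valyl enzyme, differed by -0.42 (adjusted p = 0.0633) and relative to all genes by -0.74 (adjusted p = 0.00211). On the deposited scale its difference was -0.18 without Ang II replicate 2 (adjusted p = 0.438) and -0.65 without Ang II replicate 3 (adjusted p = 0.00382). It read 5.74, 6.27, 4.83 and 5.32 with Ang II and 5.01 to 5.28 with Hyd/HCTZ, with overlap. Mars2 (methionyl) and Sars2 (seryl) each differed by -0.16, and each by -0.48 relative to all genes (adjusted p = 0.0351 and 0.0394). Cars2 (cysteinyl), Fars2 (phenylalanyl), Wars2 (tryptophanyl) and Hars2 (histidyl) had differences of 0.41, 0.22, -0.01 and -0.08 and were not called either way; their mean levels with Hyd/HCTZ were 6.18, 5.96, 5.25 and 5.96, and those of Mars2 and Sars2 were 5.56 and 5.74. In a list of 14 other genes of mitochondrial translation, 11 were tested, 5 rose and 0 fell, again near the 40.8% of all tested genes, and relative to all genes 2 were higher and 1 lower; Tfam, which packages and transcribes mitochondrial DNA, rose by 1.15.

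The same Hyd/HCTZ arrays were set against the other wild-type groups. These comparisons share the 6 Hyd/HCTZ arrays, so they are not separate evidence, and the values are given side by side. Against Ang II with 2-HOBA, 9 members were called higher and 1 lower, beside 45.7% of all tested genes (36.0% higher, 9.72% lower), and 5 higher and 3 lower relative to the shift of 0.25, beside 44.3% (23.2% higher, 21.1% lower). Against vehicle, 13 were called higher and 1 lower, beside 56.6% of all tested genes (43.4% higher, 13.2% lower), and 7 higher and 5 lower relative to the shift of 0.31, beside 52.3% (25.3% higher, 27.0% lower). Each of these counts of higher members includes Yars2, which passed the signal threshold only through the Hyd/HCTZ arrays. Its least relative differences were -0.04 against 2-HOBA and -0.10 against vehicle. Eprs was higher by 1.25 against Ang II, 1.20 against 2-HOBA and 1.10 against vehicle, and Kars by 1.03, 0.84 and 1.01. Iars was higher by 1.21, 0.79 and 1.27, the smallest value being against 2-HOBA, where its arrays read 6.46, 6.39, 6.36 and 6.49. Vars differed by -0.39, -0.45 and -0.36 and was called lower in all 3; with a common median it was called lower only against 2-HOBA. Farsb, Wars and Cars2 were higher than vehicle by 0.87, 0.83 and 0.53; relative to all genes Wars (0.52, adjusted p = 0.0511) and Cars2 (0.22, adjusted p = 0.254) were not called.

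These counts moved with the scaling of the arrays. Of all called genes, 77.4% were higher than Ang II as deposited, 48.6% relative to the median gene, 57.5% once arrays were quantile normalized, and 84.1% when all arrays shared 1 median. Against 2-HOBA the shares were 78.7%, 52.5%, 60.6% and 85.2%, and against vehicle 76.7%, 48.4%, 56.1% and 83.6%, in the same order. The members called higher and lower against Ang II numbered 12 and 2 as deposited, 5 and 6 relative to the median gene, 5 and 5 after quantile normalization, and 13 and 0 with a common median. Beside them, 5503, 5083, 4379 and 5700 of all 10452 tested genes were called, in the same order. Under all 4 scalings, Eprs, Iars (by its brighter probe set), Qars and Kars were called higher against Ang II. Eprs and Kars were called higher in all 3 comparisons. Yars2 also was, but it passed the signal threshold only through the Hyd/HCTZ arrays, and its least differences relative to all genes were -0.11, -0.04 and -0.10 against Ang II, 2-HOBA and vehicle. No member was called lower against Ang II under all 4. How many of all tested genes stayed called under all 4 scalings was not counted, so holding under them is not shown to be particular to these members.

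**Figure D3:**
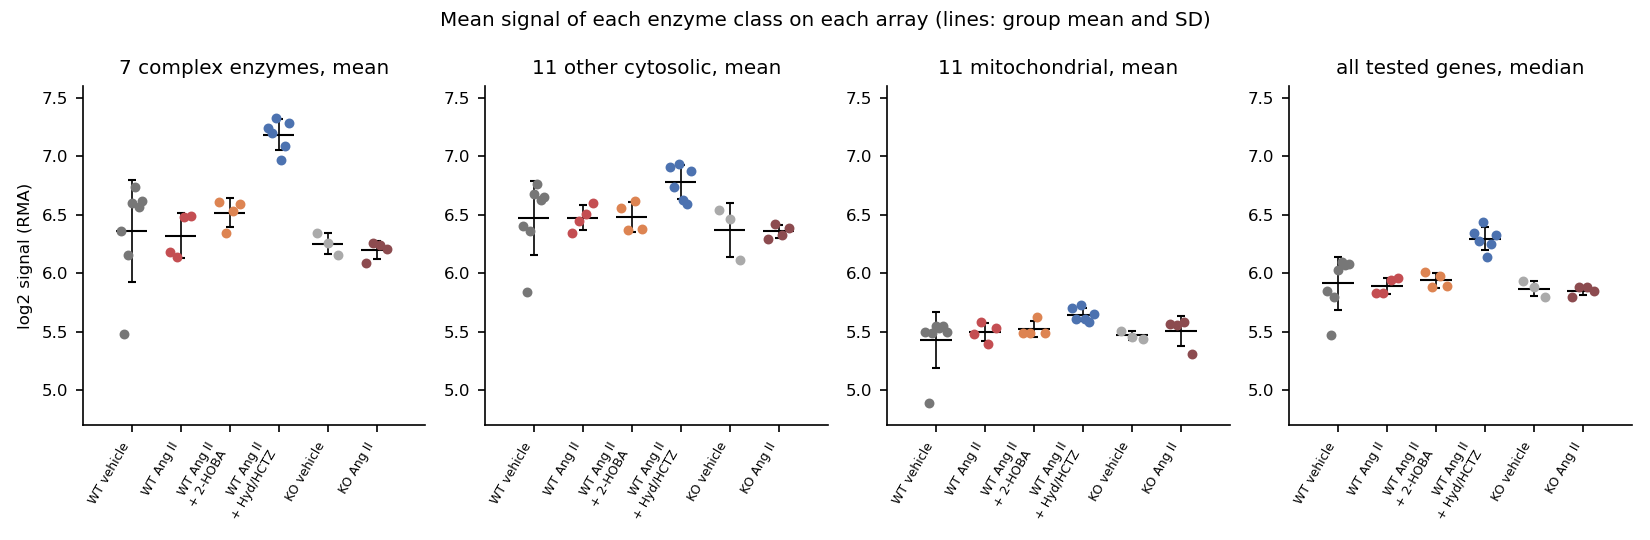
Mean log2 signal over the 7 complex enzymes, the 11 other cytosolic enzymes and the 11 tested mitochondrial enzymes, and the median of all tested genes, on each array by group, with group mean and SD. The complex enzymes lie at 6.97 to 7.33 on the Hyd/HCTZ arrays and at 5.48 to 6.74 on the others. The mitochondrial enzymes lie at 5.58 to 5.73 against 4.89 to 5.63, and include Yars2, which passed the signal threshold only through the Hyd/HCTZ arrays. Levels are not compared between panels.

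Read array by array, the mean of the 7 complex enzymes was 7.19 ± 0.13 (SD, n = 6) with Hyd/HCTZ, 6.32 ± 0.19 (n = 4) with Ang II, 6.52 ± 0.12 (n = 4) with 2-HOBA and 6.36 ± 0.43 (n = 7) with vehicle. It was 6.25 ± 0.09 (n = 3) in knockout vehicle and 6.20 ± 0.08 (n = 4) in knockout Ang II cells. The 2-HOBA arrays (6.34 to 6.61) lay above the knockout Ang II arrays (6.09 to 6.26) and met the knockout vehicle arrays at 6.34. All knockout arrays fell in array set 1 and all 2-HOBA arrays in set 2, so genotype, drug and array set cannot be told apart there. Wild-type Ang II arrays read 6.18 and 6.14 in set 1 and 6.48 and 6.49 in set 2. The other pairs of groups outside Hyd/HCTZ overlapped. The mitochondrial mean was 5.65 ± 0.06 with Hyd/HCTZ while the means of the remaining groups ran from 5.43 to 5.53. It includes Yars2, which passed the signal threshold only through the Hyd/HCTZ arrays. Yars2 averaged 5.21 there and 3.92 to 4.30 in the remaining groups, so the gap between mitochondrial means is partly set by that filter. Cell type markers also moved in Hyd/HCTZ against Ang II, beside 40.8% of all tested genes called higher and 11.9% lower. Of the tested markers, 17 of 19 dendritic, 7 of 9 proliferation, 11 of 12 red pulp macrophage, 5 of 6 monocyte and 5 of 9 plasmacytoid dendritic genes rose, with 0 falling in each list. In the opposite direction, 10 of 11 B cell, 7 of 8 erythroid, 4 of 5 stroma and endothelium, 4 of 9 neutrophil, 4 of 10 T and NK cell and 1 of 4 platelet genes fell, with 0 rising, and of 8 plasma cell genes 3 rose and 1 fell. On each array the mean of the 9 proliferation markers was 6.90 to 7.18 with Hyd/HCTZ and 5.30 to 6.85 elsewhere. Their part in the synthetase differences was not tested.

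In the other comparisons no member was called. Ang II against vehicle in wild-type cells, which asks what the hormone itself does, had a median member difference of 0.03 and 0 called of 10452 genes (0%) with limma; 2 members and 266 genes (2.54%) had an unadjusted p below 0.05. The members were Sars2, at 6.04, 5.89, 5.91 and 5.73 with Ang II and 5.12, 5.50 and 5.61 (lowest, median, highest) with vehicle (difference 0.50, adjusted p = 1.00), and Iars2, lower by 0.44 (adjusted p = 1.00). Sars2 arrays did not overlap between the groups, and Iars2 arrays did. Within array set 1 (3 vehicle, 2 Ang II) the median member difference was 0.17, and within set 2 (4 vehicle, 2 Ang II) it was -0.12, beside 0.14 and -0.09 for all genes. The set 1 vehicle arrays include replicate 2, where the cytosolic members averaged 5.70, against 6.38 and 6.28 on replicates 1 and 3. Its part in the sign within set 1 was not tested.

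Adding 2-HOBA to Ang II gave a median member difference of 0.03 and 0 called genes (0%); 1 member and 379 genes (3.63%) had an unadjusted p below 0.05. Iars2 read 5.63, 5.37, 5.57 and 5.31 with 2-HOBA, and its difference of 0.46 (SE 0.18) had an adjusted p of 0.977. Iars was next by p, with a difference of 0.42 (SE 0.23, adjusted p = 0.977). Within array set 2, which held 2 Ang II and 4 2-HOBA arrays, the median member difference was -0.02.

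In NOX2 knockout cells, Ang II against vehicle called 0 genes (0%), with 1 member and 296 genes (2.83%) at an unadjusted p below 0.05. Eprs read 6.10, 6.34, 6.46 and 6.36 with Ang II and 6.76, 6.84 and 6.63 with vehicle; the groups did not overlap, but the difference of -0.43 (SE 0.20) had an adjusted p of 1.00. Wars read 4.56, 4.81, 4.65 and 4.90 against 5.62, 5.21 and 4.95, a difference of -0.53 (SE 0.30, adjusted p = 1.00). Between genotypes on vehicle, 1 gene was called (0.00957%) and no member. Gars and Yars had the smallest p among members, with differences of -0.32 and -0.33 (adjusted p = 0.90 and 0.902); 0 members and 657 genes (6.29%) had an unadjusted p below 0.05. When the library labelled replicate 2 of wild-type vehicle was left out, the genes called rose from 1 to 68, with 0 members among them. With weights that count outlying arrays less, 1437 of 10452 genes were called, among them 5 of 29 members. These were Hars, Iars2, Nars, Qars and Rars, with differences of -0.69 to -0.40, named after their values were seen. All knockout arrays fell in array set 1 and 4 of 7 wild-type vehicle arrays in set 2, so genotype and array set partly coincide here.

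Between genotypes under Ang II, 5 genes were called (0.0478%, with 0.0383% lower) and no member; 1 member and 714 genes (6.83%) had an unadjusted p below 0.05. Every knockout array of Eprs was below every wild-type one, but the difference was not called (difference -0.47, SE 0.18, adjusted p = 0.527), and Iars2 was higher by 0.35 (adjusted p = 0.769). The genotype by Ang II interaction, which asks if the response to Ang II differs with NOX2, called 0 genes (0%), with 1 member and 257 genes (2.46%) at an unadjusted p below 0.05. Its smallest p values among members were those of Iars2 (0.58, SE 0.26, adjusted p = 1.00) and Wars (-0.57, SE 0.39, adjusted p = 1.00). A p that misses the threshold does not show that levels were alike: limma's SE for members named in these comparisons was 0.16 to 0.39.

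**Figure D4:**
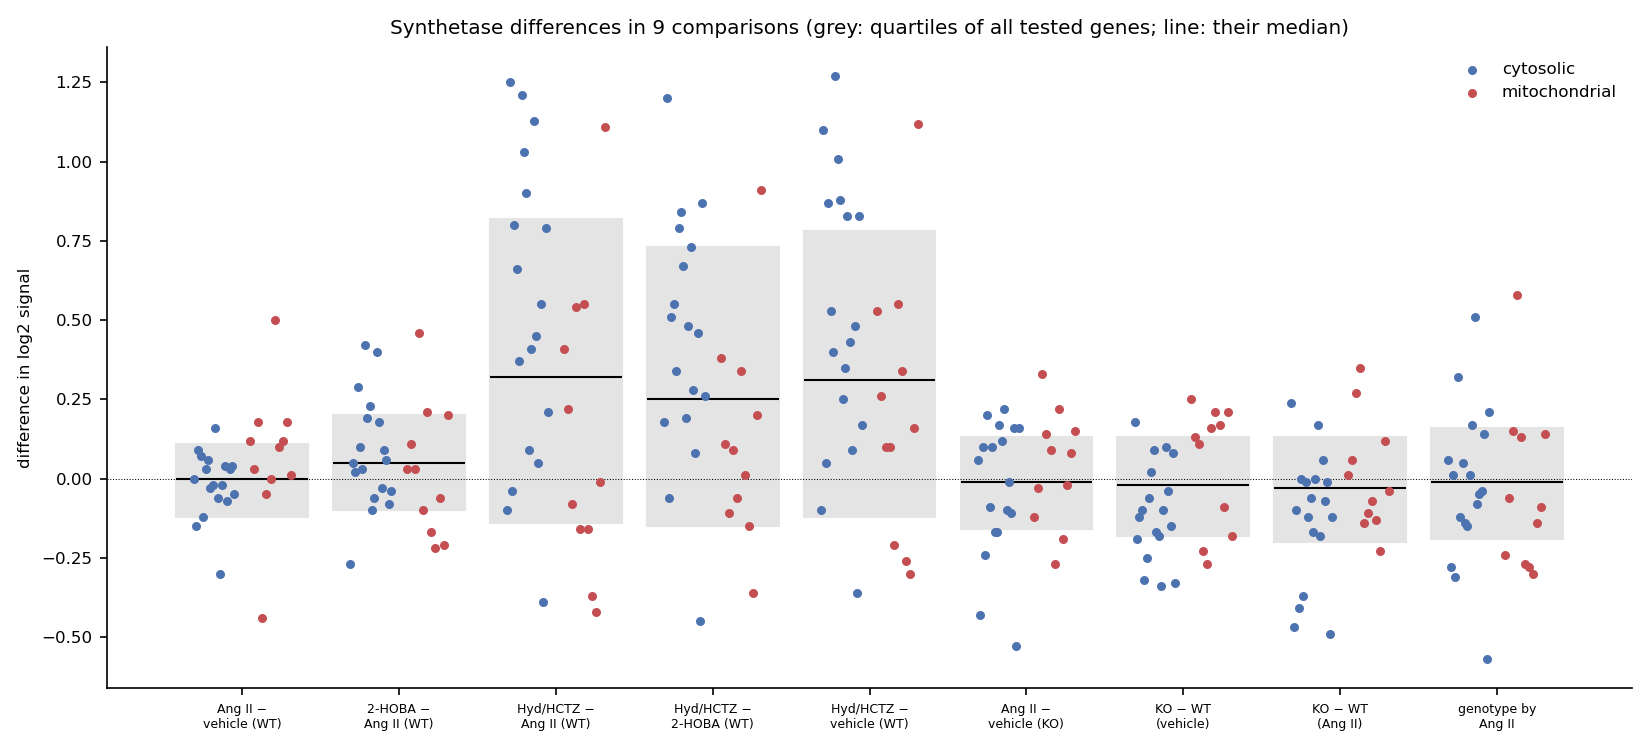
Differences in log2 signal of the 18 cytosolic and 11 mitochondrial synthetase genes in each of 9 comparisons (points), with the quartiles (grey box) and median (line) of all 10452 tested genes; the 3 Hyd/HCTZ comparisons share arrays. Members reach 1.25, 1.20 and 1.27 in the Hyd/HCTZ comparisons and lie between -0.57 and 0.58 in the other 6.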

How the data were processed

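The authors deposited 1 log2 value per probe set and array, made with RMA and Partek 6.6 per the submitters' processing notes; the sources used here did not state further settings. Values ran from 0.90 to 14.34 over 35556 probe sets, and a difference of 1 is 2-fold. RMA compresses differences of dim probe sets, and no detection calls were used here. Symbols came from the platform annotation held by GEO (21789 with 1 symbol, 1621 with several, 12146 with none), and where a gene had several, the brightest on average was kept. Members and lists were chosen with earlier results of these data known. The named members were those called in Hyd/HCTZ against Ang II with the largest relative differences, up to 6 per compartment. Any member called against the direction of most was also named, as were the 2 of smallest p in each other comparison. Per list, up to 4 genes of smallest p plus up to 2 against the list's median were named. Atf4, Aimp2, Eef1e1 and Sesn2 were added for their roles, with values seen.

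Group means of all 28 arrays were fitted once with limma 3.58.1 in R 4.3.3 and eBayes, without trend or robust options. Tests were two-sided; p values were adjusted by Benjamini-Hochberg over 10452 genes and called below 0.05. The procedure was tested on simulated data. Errors after ± are SDs. Whether replicates came from separate animals is not stated, so p values measure the spread between these samples. The labels do not say whether replicate numbers pair the samples, and the main fit was unpaired. In no comparison did every same-numbered pair correlate above 0.1. In wild-type Ang II against vehicle the correlations ran from -0.35 to 0.37, with 3 of 4 above 0.1. Such values cannot decide whether the samples were paired. Alternatives were the probe set rule, filters, scalings, array weights, the arrays in the fit, eBayes options, replicate and array set blocks and leaving out each array; fits within 1 array set were added after seeing the data. The number of arrays limits the precision.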

Additional observations from a re-analysis of the deposited data

Results flagged for a closer look

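Within groups of 4 to 7 arrays, 145 combinations of member and group were examined for a single array far from the rest, and 13 stood out; chance flags about 1 in 20. The measure is the gap to the nearest array divided by the group's range. In 10 of the 13 the low array was the one labelled wild-type vehicle replicate 2: Nars (0.756, at 7.16 against 8.52 to 8.96), Hars2 (0.749), Sars (0.744), Vars (0.686), Cars2 (0.652), Yars2 (0.644), Qars (0.628, at 4.53 against 5.84 to 6.62), Lars (0.621), Eprs (0.607) and Rars (0.605). That array also had the lowest interquartile range of the series, 1.92, and a mean correlation of 0.852 with the others; its part in these values was not tested.

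Of the other 3, Vars2 was high in wild-type vehicle replicate 1 (0.606, at 5.85 against 5.23 to 5.48). Qars was low in 2-HOBA replicate 2 (0.839, at 5.78 against 6.17 to 6.24). Wars2 was low in knockout Ang II replicate 2 (0.891, at 4.86 against 5.52 and above).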

How the results depend on the processing

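Against Ang II, 5503 genes were called with Hyd/HCTZ, 8761 with no filter and 2552 with a filter above 7, which left 6 of 10 synthetases called (main count 14). Leaving out 1 array gave 8 to 18 synthetases, the lowest without Ang II replicate 1. Farsa (-0.04) turned to 0.07 with a common array median and ranged from -0.12 to 0.04 with 1 array left out. Against 2-HOBA, 4774 genes were called and 2262 with the filter above 7; synthetases called (10) became 5 with that filter, 5 after quantile normalization, 17 with array weights and 17 with only the arrays compared. Against vehicle, 5919 genes became 10334 with no filter and 2679 above 7, where 7 synthetases were called; Cars turned to 0.01 with a common median and 0.05 with array weights, and Hars to -0.01 after quantile normalization. In the knockout, Ang II against vehicle called 1 gene after quantile normalization and 1 with array weights. Between genotypes on vehicle, 1 gene became 0 above 7, 2 after quantile normalization, 1437 with array weights (5 synthetases), 12 with array set as a block, 2 within array set 1 and 1 to 68 with 1 array left out, 68 without wild-type vehicle replicate 2; Yars turned to 0.01 within set 1. Between genotypes under Ang II, 5 genes became 13 after quantile normalization, 3 with array weights, 14 with only the arrays compared, 15 with array set as a block, 27 within set 1 and 1 to 13 with 1 array left out. 2-HOBA against Ang II called 0 to 1 genes with 1 array left out (1 without Ang II replicate 3). The causes were not tested.

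With the replicate number as a block, 4561 genes were called in Hyd/HCTZ against Ang II, 2 between genotypes on vehicle and 11 between genotypes under Ang II; 6 member calls were lost (Rars2, Tars and Tars2 against Ang II, and Gars, Lars and Tars against 2-HOBA). The array set block could not be fitted for Hyd/HCTZ, whose arrays form a set of their own. Trended and robust eBayes and the mean of probe sets changed no call of a named member.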

Other observations

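Beside the synthetases, other lists that bear on amino acid supply were read in Hyd/HCTZ against Ang II. Of 20 tested genes of amino acid sensing through mTORC1, 9 rose and 2 fell. Rheb, the GTPase that activates mTORC1, rose by 1.72 and Rragc by 1.23, while Sesn1 and Sesn3, stress-induced inhibitors of the pathway, fell by 0.85 and 0.78. Sesn2, of the same family but counted in the amino acid response list, went the other way and rose by 1.02 (limma, adjusted p = 1.96e-04). Of 21 tested genes of nucleolar growth, 12 rose, among them Nop16 (1.61) and Fbl (1.62), and 1 fell, which was Myc itself, at 8.45 ± 0.12 (SD, n = 6) against 10.24 ± 0.62 (n = 4) with Ang II. Of 9 tested interferon-gamma-induced genes, 5 rose and 0 fell, with Cxcl10 and Cxcl9 higher by 2.26 and 1.84. Of 10 tested translation elongation genes, 6 rose and 0 fell; Tufm, the mitochondrial elongation factor, rose by 1.40. These counts stand beside 40.8% of all tested genes called higher and 11.9% called lower. Relative to the median gene, beside 23.7% and 25.0% of all genes, 7 genes of amino acid sensing were higher and 2 lower, 4 of nucleolar growth higher and 1 lower, 4 interferon-gamma-induced genes higher and 1 (Gbp3) lower, and 1 elongation gene higher and 1 (Guf1) lower.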
